A study of Polistes metricus with 16 samples.

Results

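Foundress-reared and restricted larvae of the paper wasp Polistes metricus are the pair of groups set side by side here, with 4 libraries each out of 16 in the series, chosen by their labels. Every library holds the messenger RNA of the head of 1 female larva in the 5th and last larval instar. Foundress-reared larvae, which the labels call worker-destined, were collected in Iowa, from nests in the field, in late spring of 2010. Restricted larvae came from nests collected in North Carolina in 2009 and kept in a laboratory, where protein prey was offered every 3 days. For reference, the series also holds 4 worker-reared, queen-destined larvae from the Iowa site in late summer of 2010 and 4 ad libitum larvae from the North Carolina laboratory nests, with prey offered every 1 day. Field or laboratory life, population of origin and year of collection all differ together between foundress-reared and restricted larvae and cannot be told apart in this pair. They differ together between worker-reared and ad libitum larvae as well, so field and laboratory below stand for all of them. The labels do not say whether larvae of one group were nest mates, and all p-values rest on the spread among single larvae, which may be related.

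In Polistes, queens and workers are alike in form and arise from the same kind of egg, and the path a female takes is biased during larval life. A foundress that rears her first brood alone feeds it sparsely, and those daughters usually become workers. Later brood, fed by many workers, gives rise to the next season's queens. If poor feeding sets the worker path, larvae reared by a foundress and larvae kept on little protein should share a worker-like state, which is the question this pair addresses. The deposited table pairs no transcript identifier with a gene name, so the transcripts are given by identifier, and no marker of a head tissue could be read.

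Library totals ran from 28359372 to 32569316 counts in foundress-reared and from 29487724 to 33561419 in restricted larvae. At least 1 count was found for 53148 to 57466 transcripts per foundress-reared larva and for 57586 to 62026 per restricted larva, so the groups did not overlap (two-sided exact permutation test, p = 0.0286, the smallest that 70 assignments allow; adjusted p = 0.114 over 4 library measures; exact p = 0.0571 without any 1 of the restricted larvae). The 10 most abundant transcripts took 10% to 32.1% of counts in foundress-reared and 7.58% to 18.7% in restricted larvae (exact permutation test, p = 0.429). The TMM scaling factors (edgeR's correction of a library's total for its composition) ran from 0.65 to 1.2 and from 0.869 to 1.32. Restricted replicate 4 stood apart from its group, with a first principal component score of -55.9 against 24.8 to 40.8, and results are therefore given with and without it. Foundress-reared larvae spread as widely on that component, from -37.1 to 61.3.

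More transcripts were called between foundress-reared and restricted larvae than between any other of the 6 pairs of groups in the series. Of 36337 tested transcripts, 842 were higher in foundress-reared larvae (2.32%) and 1126 were higher in restricted larvae (3.1%), 1968 in all (5.42%), at an edgeR adjusted p under 0.05 in one fit of all 16 libraries. The median difference of the 1968 was 2.22-fold, against 1.3-fold over all tested transcripts. At least 2-fold differences made up 1178 of them and at least 4-fold differences 389. Levels did not overlap between the 4 foundress-reared and the 4 restricted larvae for 1530 of the 1968 (77.7%), against 10% of all tested transcripts, but the same levels made the calls. In whole-head RNA, fewer cells of a type and less RNA per cell cannot be told apart.

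The size of this count depended on which larvae were in the fit. Omission of restricted replicate 4 raised it to 6145 (3272 higher in foundress-reared larvae), and omission of restricted replicate 2 lowered it to 250. Fits without foundress-reared replicates 1, 2 and 4 gave 811, 303 and 520 calls, fits without restricted replicates 1 and 3 gave 396 and 716, and fits without ad libitum replicates 2 and 4 gave 1208 and 1300. Fitted without the worker-reared and ad libitum libraries, which lend their spread to the test, the pair had 39 calls, and 3618 when restricted replicate 4 was omitted as well. Of the 1968 transcripts, 197 (10%) were called in the same direction in every one of the 16 fits that left out 1 library. These 197 comprised 46 higher in foundress-reared and 151 higher in restricted larvae, with a median difference of 4.23-fold.

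**Figure D1:**
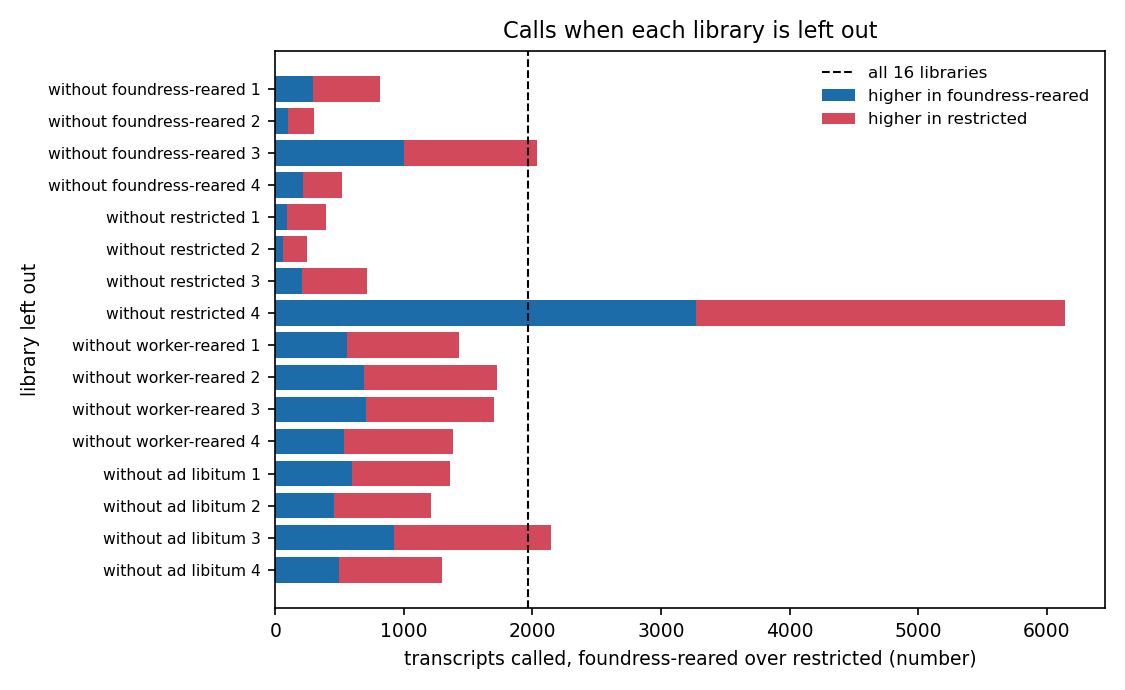
Number of transcripts called between foundress-reared and restricted larvae (x axis) when each library in turn was left out of the fit (y axis), split by direction. The dashed line marks the 1968 calls with all 16 libraries. The bar without restricted replicate 4 reaches 6145 and the bar without restricted replicate 2 reaches 250.

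Transcript PmetTSAr1.1-014184 had the smallest p of those higher in foundress-reared larvae. Its levels in CPM (counts scaled to a common, TMM-adjusted library total) were 13.5, 5.53, 5.55 and 3.27 in foundress-reared larvae and 0.292, 0.185, 0.0892 and 0.204 in restricted larvae. The lowest foundress-reared larva was thus well above the highest restricted larva, and the difference was 35.8-fold (6.97 ± 4.5 against 0.193 ± 0.0833 CPM, SD, n = 4 each; edgeR log2 fold change 5.16 with SE 0.491 and adjusted p = 0.00042). Worker-reared larvae, at 5.7 to 8.6 CPM, and ad libitum larvae, at 0.0843 to 0.297 CPM, lay at the levels of the other field and the other laboratory group. The call held in each of 26 alternative fits, with an edgeR, DESeq2 or limma adjusted p of at most 0.0355.

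Transcript PmetTSAr1.1-006807 had the smallest p of those higher in restricted larvae and mirrored this arrangement. Its levels were 37.9, 27.9, 33.3 and 27.8 CPM in restricted larvae and 0.49, 1.24, 2.3 and 2.96 CPM in foundress-reared larvae. All 4 restricted larvae were above all 4 foundress-reared larvae by 18-fold on average (31.7 ± 4.86 against 1.75 ± 1.1 CPM, n = 4 each; edgeR log2 fold change -4.17 with SE 0.377 and adjusted p = 0.00042). Restricted replicate 4 lay with its group here, which the choice of a transcript without overlap of levels required. Ad libitum larvae had 26.2 to 31.7 CPM and worker-reared larvae 2.31 to 3 CPM. Field and laboratory larvae, which also differ in population and year, thus separated whatever their rearing or feeding. This call, too, held in each of 26 alternative fits, with an adjusted p of at most 0.0391.

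Among called transcripts whose levels did not overlap, PmetTSAr1.1-000035 was the most abundant of those higher in foundress-reared larvae. It measured 6030, 6710, 8740 and 8420 CPM in foundress-reared larvae and 4120, 3950, 4660 and 5150 CPM in restricted larvae. The gap between the groups was narrow and the fold small, at 1.67 (edgeR log2 fold change 0.74 with SE 0.179 and adjusted p = 0.0323). Worker-reared larvae (5800 ± 796 CPM) and ad libitum larvae (5130 ± 528 CPM, n = 4 each) had means between those of the compared groups. The call was lost in 10 of 25 alternatives, where the adjusted p over all 25 ran from 0.000169 to 0.26, and the direction held in each.

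The most abundant such transcript that was higher in restricted larvae was PmetTSAr1.1-014943. Restricted larvae had 2320, 3370, 943 and 407 CPM and foundress-reared larvae 102, 379, 277 and 103 CPM. Replicate 4 was the lowest restricted larva and lay just above the highest foundress-reared larva. The groups differed 8.18-fold (1760 ± 1340 against 215 ± 137 CPM, n = 4 each; edgeR log2 fold change -3.03 with SE 0.752 and adjusted p = 0.0362), and the log2 fold change was -3.36 without restricted replicate 4 (edgeR adjusted p = 0.00835). Ad libitum larvae overlapped with restricted larvae at 231 to 1340 CPM, and worker-reared larvae had 32.8 to 162 CPM. The call was lost in 11 of 26 alternatives (adjusted p from 0.000511 to 0.145), and the direction held in each.

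**Figure D2:**
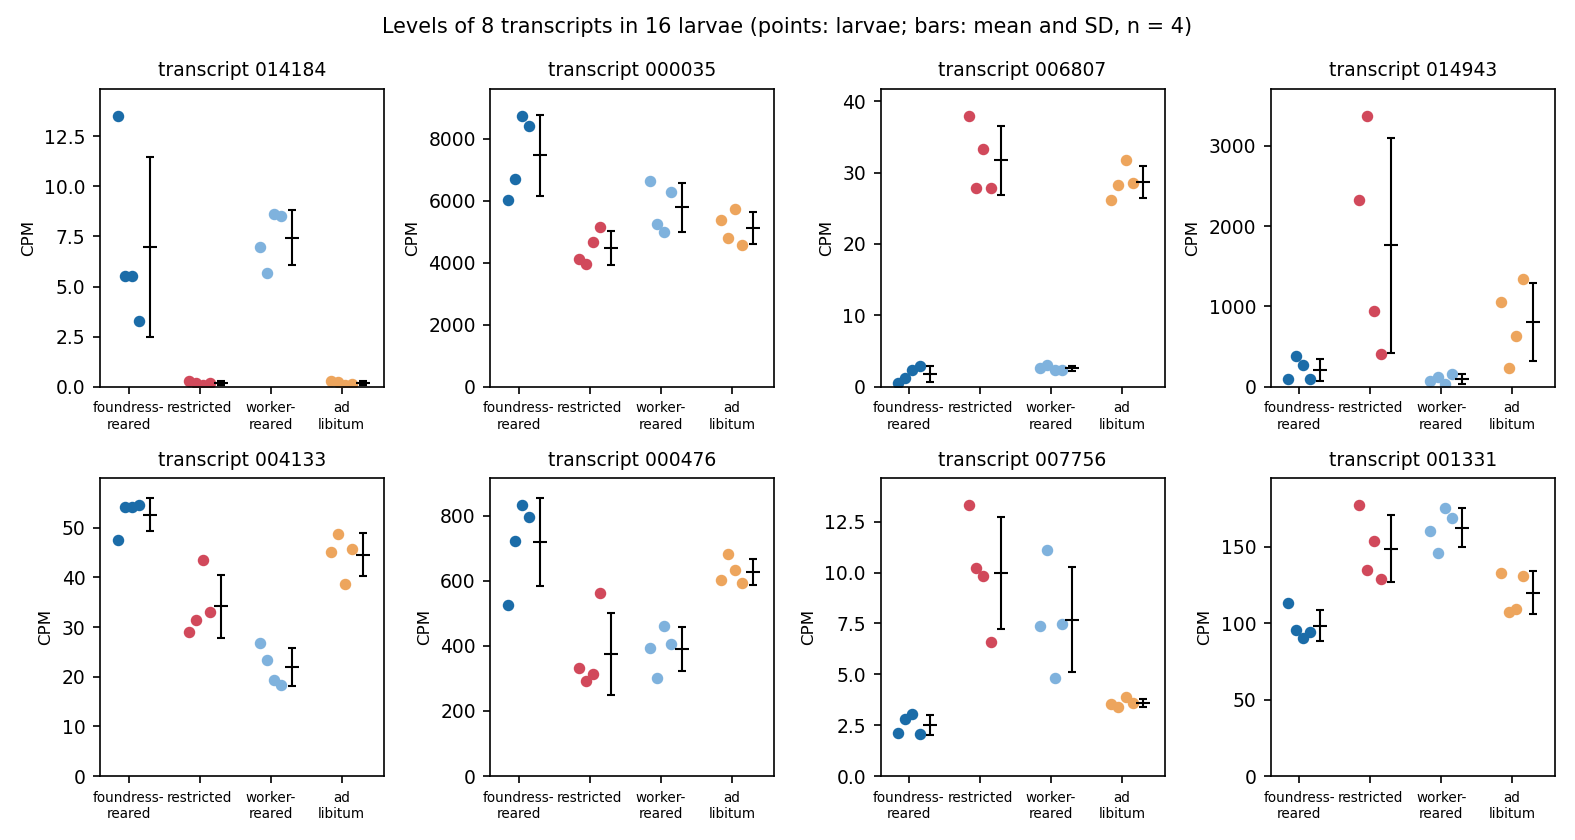
Level in CPM (y axes, starting at 0) of 8 transcripts in the 16 larvae, by group (x axes). Each point is 1 larva, and bars give the mean and SD of 4 larvae. Transcripts 014184 and 006807 separate field from laboratory larvae. In transcripts 004133, 000476, 007756 and 001331 the means of foundress-reared and ad libitum larvae lie on one side of the means of restricted and worker-reared larvae. The contrast that chose these 4 favours that order.

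The direction of the difference moved with abundance. When tested transcripts were divided into 4 equal classes by their mean CPM over the 8 larvae, 555 of the 791 called in the most abundant class (70.2%) were higher in foundress-reared larvae. In the other classes, from high to low abundance, that share was 31.9% of 508, 19.5% of 426 and 17.3% of 243. The median level of transcripts higher in foundress-reared larvae was 29.3 CPM and that of transcripts higher in restricted larvae was 2.68 CPM, against 2.54 CPM over all tested. Foundress-reared larvae also had fewer transcripts detected, and the part of this and of library composition in the pattern was not tested. Without restricted replicate 4 the share higher in foundress-reared larvae was 71% of 2431 calls in the most abundant class, and 52% of 1695, 35.1% of 1190 and 30.6% of 731 in the others, so that the second most abundant class turned to mostly higher. The balance also moved with the scaling. With upper quartile scaling 23.8% of 1726 calls were higher in foundress-reared larvae, against 42.8% with TMM and 48.5% of 2095 with RLE scaling. The order of the 4 classes was the same under each, but the share in the most abundant class was 44.3% with upper quartile and 75.2% with RLE scaling. Calls in the most abundant class were thus mostly higher in foundress-reared larvae with TMM and RLE scaling and mostly lower with upper quartile scaling.

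**Figure D3:**
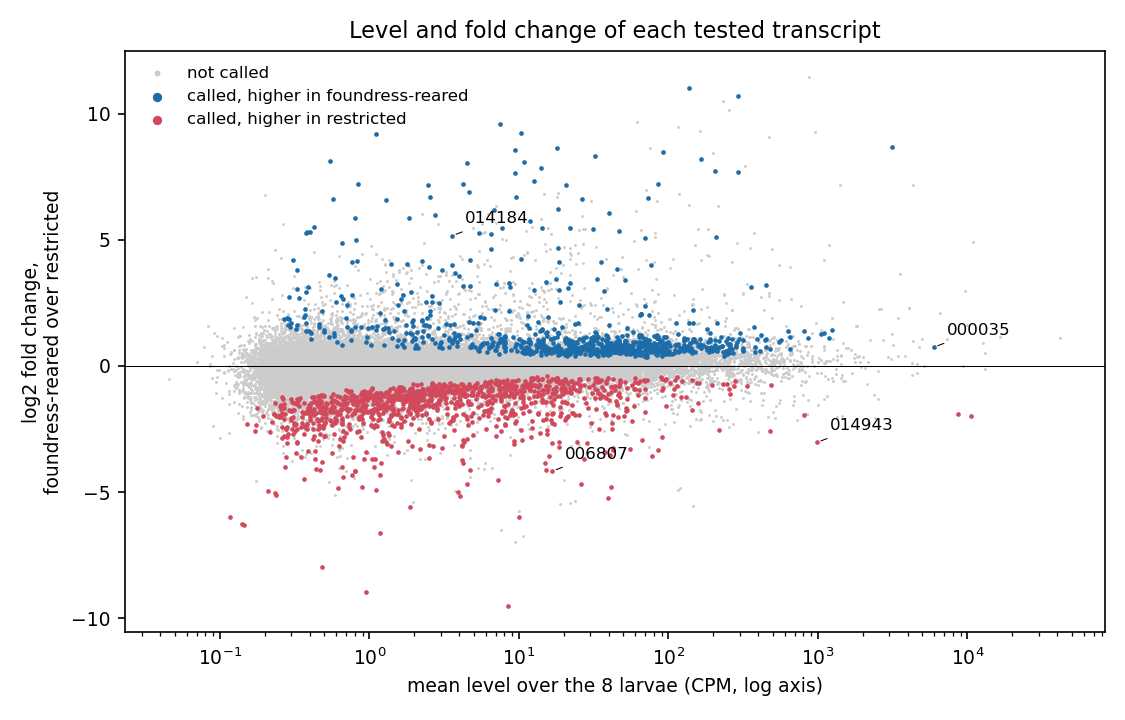
Mean level over the 8 larvae in CPM (x axis, log scale) and fitted log2 fold change of foundress-reared over restricted larvae (y axis) for each of the 36337 tested transcripts. Called transcripts higher in foundress-reared larvae (842) have a median level of 29.3 CPM and a median log2 fold change of 0.86, and 338 of them differ at least 2-fold. Those higher in restricted larvae (1126) are spread over all levels, with a median of 2.68 CPM against 2.54 CPM over all tested. Labels give the ends of 4 identifiers described in the text.

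For many transcripts the data set a limit to the difference. The 95% interval of the fold change lay within 2-fold either way for 14973 of 36337 transcripts (41.2%), of which 295 were called. For 19691 transcripts (54.2%) neither a difference was called nor a 2-fold one could be set aside. The interval lay within 0.32 on the log2 scale either way for 419 transcripts, among them the 2 most abundant, PmetTSAr1.1-000313 and PmetTSAr1.1-000452. The former measured 707, 653, 726 and 681 CPM in foundress-reared larvae and 725, 704, 663 and 677 CPM in restricted larvae. Its means were 692 ± 31.9 and 692 ± 27.5 CPM (n = 4 each), with an interval of the log2 fold change from -0.297 to 0.295. PmetTSAr1.1-000452 measured 479 ± 37.6 against 464 ± 21.6 CPM (interval from -0.208 to 0.301). The levels of the groups overlapped in both. These are by choice the most abundant transcripts within the limit of 0.32, and their intervals went beyond that limit in 10 and 9 of 26 alternatives.

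A few transcripts were at 0 in every larva of one group. Present meant at least 10 counts in each of the 4 larvae of a group, and 1 transcript was present in foundress-reared and at 0 in restricted larvae, while 2 were the reverse. PmetTSAr1.1-025712 had 43, 98, 53 and 35 counts in foundress-reared larvae and 0 in each restricted larva, a level at least 23.4-fold higher when restricted larvae are set to a floor of 3 counts per library (2.21 ± 0.949 CPM, n = 4; edgeR adjusted p = 0.0496). Worker-reared larvae had 68 to 148 counts, and of the ad libitum larvae only replicate 3 had any, with 63. PmetTSAr1.1-033265 had 37, 59, 113 and 33 counts in restricted larvae and 0 in each foundress-reared larva (at least 15.9-fold higher, edgeR adjusted p = 0.00317). PmetTSAr1.1-033568 had 17, 24, 55 and 31 counts against 0 (at least 7.98-fold higher, edgeR adjusted p = 0.00258). Both were present in the 4 ad libitum larvae, at 20 to 41 and 11 to 24 counts, and each had 1 count in a single worker-reared larva and 0 in the other 3. These 3 transcripts thus followed field and laboratory origin, save for ad libitum replicate 3. The floors cover counting error only.

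Whether the difference recurred was read in the other pair of a field and a laboratory group, worker-reared and ad libitum larvae, which shares no larva with it. Population of origin and year of collection differ in that pair too. Of the 1968 transcripts, 887 (45.1%) had the same sign there, against 47.7% of all tested transcripts, and their median log2 fold change in the direction of the first pair was -0.04. The 842 transcripts higher in foundress-reared larvae had medians of 0.86 in their own pair, which chose them, and -0.06 in the other. For the 1126 higher in restricted larvae the medians were -1.40 and 0.01. Without restricted replicate 4, 2871 of 6145 (46.7%) had the same sign. Of the 39 called from the 8 libraries alone, 26 (66.7%) had the same sign, with a median of 1.01 in that direction, as had 118 of the 197 that held in every fit (59.9%, median 0.15).

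A small part of the difference was nevertheless common to both pairs. Worker-reared and ad libitum larvae differed in 75 transcripts (0.206%; 37 without ad libitum replicate 2 and 87 without restricted replicate 4), and 48 of them were also called in the same direction between foundress-reared and restricted larvae. That is 64% of the shorter list, against 5.42% of all tested transcripts called between foundress-reared and restricted larvae in either direction. It is 2.44% of the longer list, against 0.206% called in the other pair. Both pairs were tested with the same estimate of spread for each transcript, so the 2 lists are not independent. The 48 comprised 14 higher and 34 lower in field larvae, with median absolute log2 fold changes of 2.79 and 3.44 in the 2 pairs, and 29 of them were among the 197 that held in every fit. PmetTSAr1.1-014184 was 38.2-fold higher in worker-reared than in ad libitum larvae (edgeR log2 fold change 5.25 with SE 0.492 and adjusted p = 0.000386), against 35.8-fold in the first pair. PmetTSAr1.1-006807 was 11.1-fold lower (edgeR log2 fold change -3.47 with SE 0.362 and adjusted p = 0.000636), against 18-fold. The difference between the pairs' log2 fold changes was -0.09 for PmetTSAr1.1-014184 (95% interval -1.50 to 1.31, edgeR adjusted p = 0.962) and -0.70 for PmetTSAr1.1-006807 (interval -1.71 to 0.31, edgeR adjusted p = 0.446).

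The fold changes of the 2 pairs differed, by a contrast of contrasts, in 199 transcripts (0.548%), and 150 of these (75.4%) were among the 1968, where they made up 7.62%. In 146 of the 150 the other pair had the opposite sign, which such a test favours. PmetTSAr1.1-007756 had 2.11, 2.82, 3.07 and 2.05 CPM in foundress-reared larvae and 13.3, 10.2, 9.84 and 6.59 CPM in restricted larvae, without overlap (edgeR log2 fold change -1.99 with SE 0.257 and adjusted p = 0.00263). Worker-reared larvae were at 4.81 to 11.1 CPM and ad libitum larvae at 3.41 to 3.88 CPM, the reverse order of field and laboratory (difference of the log2 fold changes -3.07, SE 0.358, edgeR adjusted p = 0.0107). PmetTSAr1.1-004133 had 47.6, 54.1, 54.1 and 54.5 CPM in foundress-reared and 28.9, 31.5, 43.4 and 33 CPM in restricted larvae (edgeR log2 fold change 0.62 with SE 0.148 and adjusted p = 0.0311). Worker-reared larvae, at 18.4 to 26.8 CPM, were below all of these and ad libitum larvae were at 38.6 to 48.7 CPM (difference 1.64, SE 0.21, edgeR adjusted p = 0.0107).

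Of the 199, the most abundant in each direction were PmetTSAr1.1-000476 and PmetTSAr1.1-001331. PmetTSAr1.1-000476 had 526, 723, 832 and 796 CPM in foundress-reared larvae and 332, 292, 315 and 562 CPM in restricted larvae. Only restricted replicate 4 overlapped with the foundress-reared larvae (edgeR log2 fold change 0.94 with SE 0.215 and adjusted p = 0.0273; difference between the pairs 1.62, edgeR adjusted p = 0.0402). PmetTSAr1.1-001331 had 113, 95.5, 90.1 and 94 CPM in foundress-reared and 177, 135, 154 and 129 CPM in restricted larvae, without overlap (edgeR log2 fold change -0.60 with SE 0.133 and adjusted p = 0.0246; difference -1.04, edgeR adjusted p = 0.0402). Worker-reared larvae had 301 to 462 CPM of the former and 146 to 175 CPM of the latter, within the range of the restricted larvae. For the former that range rests on restricted replicate 4. Worker-reared replicates 1, 3 and 4, at 395, 462 and 405 CPM, were above all the other restricted larvae. Each of these 2 calls of a difference was lost in 15 of 24 alternatives, up to an adjusted p of 0.0925. The calls of PmetTSAr1.1-007756 and PmetTSAr1.1-004133 were lost in 1 and 2, up to an adjusted p of 0.0531, and all 4 kept their direction. The count of 199 became 3117 when restricted replicate 4 was left out, 295 and 309 when foundress-reared replicate 1 or 3 was, and 0 to 70 for each of the other libraries.

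**Figure D4:**
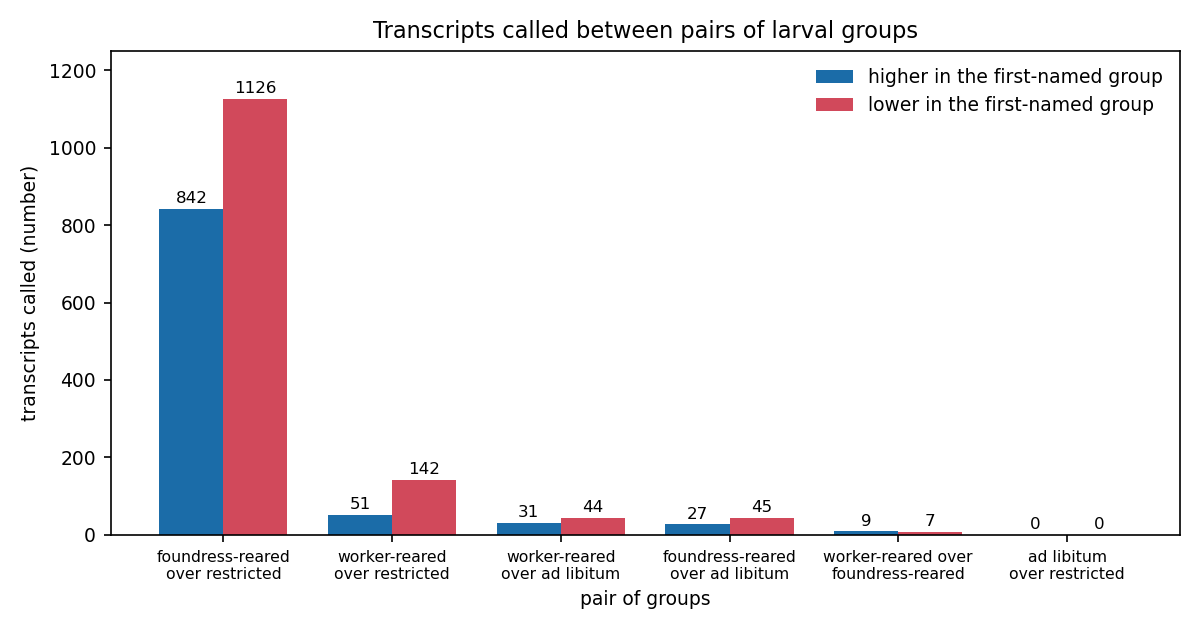
Number of transcripts called at an edgeR adjusted p under 0.05 (y axis) between each pair of groups (x axis), split by direction, from one fit of 16 libraries. Foundress-reared over restricted larvae has 842 and 1126 calls, and no other pair has more than 142 in one direction. Pairs that name the same group share its larvae.

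Pairs that share a group with this one were set beside it without a test of their counts. Foundress-reared and ad libitum larvae differed in 72 transcripts (0.198%) and worker-reared and restricted larvae in 193 (0.531%). Between the 2 field groups 16 transcripts (0.044%) were called, with 979 by DESeq2, 4 by limma voom and 399 with 1 surrogate variable. Leaving out 1 library at a time gave 1 (without foundress-reared replicate 2) to 46 (without foundress-reared replicate 3) calls between them. Without restricted replicate 4 the first 2 counts were 80 and 4267, and over all 16 omissions of a library they ran from 31 (without ad libitum replicate 1 or foundress-reared replicate 2) to 80 and from 33 (without worker-reared replicate 3) to 4267. Of the 1968, 1789 (90.9%) were called in none of the other 3 pairs of a field and a laboratory group. Nearly all tested transcripts were called in none of them, since these pairs had calls for 0.198%, 0.531% and, between worker-reared and ad libitum larvae, 0.206%. A call missed in one pair does not show a difference between pairs. Tested transcript by transcript, the excess of the restricted over the ad libitum comparison is the contrast of ad libitum with restricted larvae. It had 0 calls with edgeR and with limma, 484 with DESeq2 and 4949 (13.6%) at an unadjusted p under 0.05 in edgeR, where foundress-reared over restricted had 8647 (23.8%), and 3016 with edgeR without restricted replicate 4.

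As a single value per larva, the root mean square difference of log2 CPM over all tested transcripts was taken between each laboratory larva and the 4 foundress-reared larvae. Its mean was 1.11, 1.14, 1.18 and 1.05 for restricted and 0.867, 0.933, 0.994 and 0.979 for ad libitum larvae. Every restricted larva was therefore farther from the foundress-reared larvae than any ad libitum larva was (1.12 ± 0.0538 against 0.943 ± 0.0571, n = 4 each; two-sided exact permutation test, p = 0.0286, the smallest possible; adjusted p = 0.0572 over 2 tests). Over the 500 most variable transcripts the exact permutation p was 0.0857, and it was 0.0571 without foundress-reared replicate 1, 2 or 3 or ad libitum replicate 1, with the same direction in each. The distance to worker-reared larvae was 1.04 ± 0.131 for restricted and 0.912 ± 0.157 for ad libitum larvae (exact permutation test, p = 0.286). Distances between single larvae overlapped widely, from 0.65 to 1.49 (median 1.13) in the 16 pairs of a foundress-reared and a restricted larva and from 0.709 to 1.42 (median 0.97) in the 6 pairs of foundress-reared larvae. Restricted larvae were also more spread among themselves (median 0.985) than ad libitum larvae were (median 0.757). Spread within a group raises this distance as well, and its part in the difference was not tested.

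**Figure D5:**
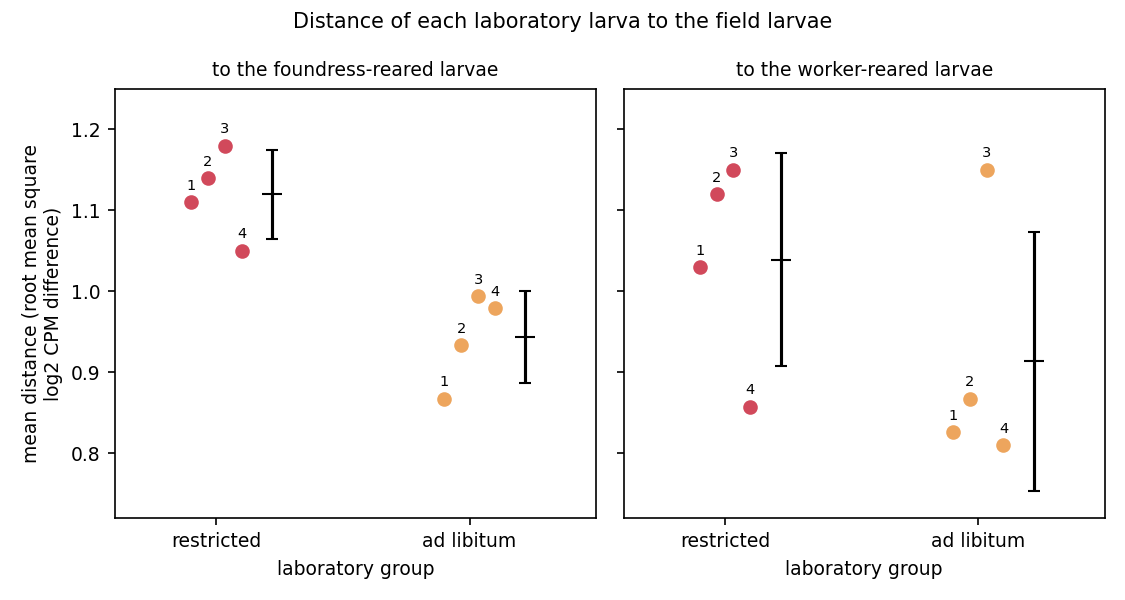
Mean distance in log2 CPM (y axis, not starting at 0) of each laboratory larva to the 4 foundress-reared larvae (left) and to the 4 worker-reared larvae (right), by feeding group (x axis). Numbers name the replicates, and bars give the mean and SD of 4 larvae. On the left the 4 restricted larvae lie at 1.05 to 1.18 and the 4 ad libitum larvae at 0.867 to 0.994, and on the right the groups overlap.

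Single larvae were then read on transcripts ranked without them. For each of the 8 larvae, the fit that left it out supplied the 200 best-ranked transcripts of each direction by p. Own-group levels were nearer for 75%, 88.2%, 58.5% and 89.2% of these 400 in foundress-reared replicates 1 to 4. In restricted replicates 1, 2 and 3 the share was 91%, 95.5% and 81.8%, and in replicate 4 it was 14.2%. Restricted replicate 4 thus lay nearer to the foundress-reared larvae on most transcripts that separate them from the other restricted larvae. It lay with its group for PmetTSAr1.1-014184, PmetTSAr1.1-006807 and the 3 transcripts at 0 in one group. The rules that chose those transcripts required this, so they do not bear on where the larva lies. Over all tested transcripts, its mean distance was 0.857 to worker-reared, 1.05 to foundress-reared and 1.22 to the other restricted larvae, so its nearness was not particular to foundress-reared larvae. For the larvae of the other groups the share of nearer levels was taken on another list and is not on the same scale. On the 1968 called transcripts, 35.7% to 62.4% of levels in worker-reared and 51.1% to 59.3% in ad libitum larvae were nearer to the foundress-reared than to the restricted mean.

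Called transcripts included neighbours in the numbering of the assembly. Where a called transcript and the next number had both been tested, the next was called in the same direction in 199 of 1734 cases (11.5%), against 2.32% and 3.1% of all tested transcripts in the 2 directions, and pairs called in opposite directions numbered 35. The share called in either direction also rose with abundance, from 2.67% in the least to 8.71% in the most abundant class. Whether neighbours are alike in abundance was not tested. Neighbouring identifiers may be forms of one gene, which the table does not say, so counts of transcripts are not counts of genes.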

How the data were processed

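The authors deposited whole-number counts for 74517 assembled transcripts in 16 libraries. Per the submitters' processing notes the tools included Bowtie2 and eXpress. No source used here states their versions, the assembly, the handling of strand or the treatment of reads shared by similar transcripts. Total counts and detected transcripts set the depth. edgeR's filterByExpr kept 36337 transcripts (48.8%), which held 99.74% of counts. One model with a mean per group was fitted with edgeR 4.0.16 in R 4.3.3 (TMM, robust quasi-likelihood F test, 12 residual degrees of freedom, Benjamini-Hochberg adjusted p under 0.05). SE is the absolute log2 fold change over the square root of F, and intervals cover 95%. CPM uses TMM-adjusted totals, and log2 CPM a prior count of 2. Principal components used the 500 most variable transcripts. Alternatives used DESeq2 1.42.0, limma 3.58.1 (voom) and sva 3.50.0 (1 surrogate variable). The scripts were tested on simulated data for foundress-reared over restricted larvae. There the edgeR test recovered 19 of 100 changes of 2-fold and 73 of 100 changes of 4-fold, with 2 false among 94 calls.

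Named in each direction are the called transcript with the smallest p and the most abundant one, without overlap of levels for the main pair. Also named are the 2 most abundant transcripts whose interval lay within 0.32 on the log2 scale. Those at 0 in one group are named too (all 3 were named after their values were seen). The rule held at most 2 per direction, since no names are paired with identifiers, and the gene lists prepared were not run. Samples and comparisons were chosen with earlier results of these data known. Replicate numbers follow the order of records and pair no larvae.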

Additional observations from a re-analysis of the deposited data

Results flagged for a closer look

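Values that stood far from the rest of their group were found in 5 of 52 groups of 4 that were examined, and chance alone gives such a value in about 1 of 20. In foundress-reared replicate 1 the level of PmetTSAr1.1-004133 was 47.6 CPM, while the rest of the group had 54.1 to 54.5 CPM. In restricted replicate 4 the level of PmetTSAr1.1-000476 was 562 CPM, while the rest of the group had 292 to 332 CPM. That larva also had 62026 detected transcripts, where its group otherwise had 57586 to 58253. Its score on the first principal component was -55.9, where its group otherwise had 24.8 to 40.8. Ad libitum replicate 3 had a mean distance of 1.15 to the worker-reared larvae, and its group otherwise had 0.81 to 0.867. Between the 2 pairs of a field and a laboratory group, the fold changes of 4 named transcripts differed by the contrast of contrasts. The rule that named these 4 required this. As foundress-reared over restricted minus worker-reared over ad libitum, on the log2 scale, PmetTSAr1.1-004133 had 1.64 and PmetTSAr1.1-000476 had 1.62. In the other direction, PmetTSAr1.1-007756 had -3.07 and PmetTSAr1.1-001331 had -1.04.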

How the results depend on the processing

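Calls between foundress-reared and restricted larvae numbered 39 in the 8 libraries alone, 1015 without a low-count filter, 5350 with 1 surrogate variable, 3975 with DESeq2, 1057 with limma voom, 1178 when at least 2-fold was asked as well, and 3618 in the 8 libraries without restricted replicate 4, an alternative chosen after seeing the data. Of the calls made with DESeq2 and with a surrogate variable, 1936 and 1935 were among the 1968. The contrast of contrasts had 44 calls without a filter, 422 with a CPM filter, 3411 with 1 surrogate variable, 2172 with DESeq2 and 17 with limma voom. DESeq2 called 292 between foundress-reared and ad libitum, 1173 between worker-reared and restricted and 483 between worker-reared and ad libitum larvae, where 1 surrogate variable gave 166. The cause of these changes was not tested. With at least 20 counts, 1 transcript was present in restricted larvae and at 0 in foundress-reared larvae. The difference in distance to foundress-reared larvae was 0.395 over the 500 most variable transcripts (exact permutation p = 0.0857).

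When each library was left out in turn, calls ranged from 250 to 6145 for foundress-reared over restricted, from 0 to 3117 for the contrast of contrasts, from 31 to 80 for foundress-reared over ad libitum, from 33 to 4267 for worker-reared over restricted and from 37 to 87 for worker-reared over ad libitum. The transcripts present in one group numbered 1 to 4 for foundress-reared and 2 to 5 for restricted larvae. The difference in distance to foundress-reared larvae, restricted minus ad libitum, ranged from 0.138 to 0.23. Differences of foundress-reared minus restricted larvae ranged from -4940 to -3060 transcripts detected, from -1290000 to 313000 total counts and from -21.2 to 18 in first component score. No paired analysis was possible because the labels give no replicate numbers.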
